A study of Mus musculus with 5 samples.

Results

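The non-clustered delta protocadherins are single-gene members of the protocadherin family of cell adhesion proteins, and NEUROD2 binding was examined here at 9 of them, *Pcdh1*, *Pcdh7*, *Pcdh8*, *Pcdh9*, *Pcdh10*, *Pcdh17*, *Pcdh18*, *Pcdh19* and *Pcdh20*. Binding was measured by ChIP-Seq in cerebral cortex of BALB/c mouse embryos at E14.5, a stage at which excitatory neurons of the cortex are being born. There were 3 NEUROD2 libraries, each made with a different Abcam antibody (ab1 from mouse, the other two from rabbit), from cortices pooled over embryos of several litters. The embryos were untreated, so the libraries are 3 measurements of a single condition, and the comparisons below are between antibodies, between loci and with the rest of the genome. The 2 GFP libraries were the authors' background in peak calling, with the mouse GFP antibody for ab1 and the rabbit GFP antibody for both ab2 and ab3, and their own values were not analysed here. Peak lists hold no expression, so the tissue was not checked against marker genes, and cortex at this age mixes neurons with progenitors. With 1 library per antibody no test between samples was possible, and the intervals given are 95% Wilson intervals that cover counting error only.

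A peak was assigned to a gene when its midpoint lay within the gene's span in mm10 or up to 50 kb from either end, the span being that of the longest transcript in GENCODE M21. Overlapping peaks of the 3 antibodies were merged into regions, and a region with peaks of at least 2 antibodies is called a shared region. The windows held 154 of the 94621 peaks in the series, 81 from ab1, 59 from ab2 and 14 from ab3, or 51.3 ± 34.2 per antibody (SD, n = 3). These merged into 83 of the 53833 regions of the series, and 55 of the 83 were shared, or 66.3% (55.6 to 75.5), against 59.9% of all regions. Each peak carries the peak caller's score, which is 10 times the −log10 p-value, has a floor of 50 and was not scaled between libraries. ab1 gave 51841 peaks in all, ab2 35310 and ab3 7470.

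Protocadherins carry cadherin repeats outside the cell, a single membrane span and a cytoplasmic tail, and in neurons they act in axon growth, cell sorting and synapse formation. The delta subfamily falls by its cytoplasmic motifs into delta-1 (here *Pcdh1*, *Pcdh7* and *Pcdh9*, with *Pcdh11x* a further delta-1 gene that is not among the 9) and delta-2 (*Pcdh8*, *Pcdh10*, *Pcdh17*, *Pcdh18*, *Pcdh19*), with *Pcdh20* set apart, and unlike the clustered protocadherins each gene has a locus of its own. NEUROD2 is a basic helix-loop-helix factor of postmitotic excitatory neurons that binds E-boxes.

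The extended E-box searched, on either strand, was the hexamer CANNTG with GA, GC, TA or TC as its middle letters and with G or T as the base that follows it, which makes 8 forms such as CAGATGG. Stretches of 80 bases are shown for 6 of the genes to give the motif its surroundings. Each is from the gene's highest-scoring shared region that has this E-box in its central 200 bp, with regions of all 3 antibodies taken first and UTRs left out, and these are not always the strongest regions of the gene. The first *Pcdh9* stretch was added because it is from the strongest region of all. They are written on the plus strand of mm10, centred on the E-box nearest the region's midpoint, with every match in capitals.
*Pcdh9*, intron 3, chr14:93463546-93463625: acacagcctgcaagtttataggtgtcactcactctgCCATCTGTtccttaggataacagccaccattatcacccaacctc
*Pcdh9*, intron 3, chr14:93451441-93451520: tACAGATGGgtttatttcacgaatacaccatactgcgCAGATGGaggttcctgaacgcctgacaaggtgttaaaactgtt
*Pcdh7*, intron 1, chr5:57847670-57847749: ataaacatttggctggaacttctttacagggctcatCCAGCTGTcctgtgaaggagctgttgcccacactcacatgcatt
*Pcdh8*, upstream, chr14:79793389-79793468: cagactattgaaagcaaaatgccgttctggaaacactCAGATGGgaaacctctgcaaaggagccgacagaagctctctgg
*Pcdh10*, intron 4, chr3:45431913-45431992: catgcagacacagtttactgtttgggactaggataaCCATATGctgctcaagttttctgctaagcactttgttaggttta
*Pcdh17*, downstream, chr14:84547658-84547737: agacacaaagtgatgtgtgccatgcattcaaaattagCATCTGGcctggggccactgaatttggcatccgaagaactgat
*Pcdh19*, downstream, chrX:133565480-133565559: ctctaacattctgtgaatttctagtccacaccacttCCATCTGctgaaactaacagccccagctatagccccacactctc
In 4 of the 7 stretches the E-box lay within 10 bp of the region's midpoint, and the *Pcdh7*, *Pcdh8*, *Pcdh9* and *Pcdh19* stretches come from regions bound with all 3 antibodies. The first *Pcdh9* stretch is from the strongest region of all 9 genes, whose nearest E-box is centred 98 bp from the midpoint. That is at the edge of the central 200 bp in which the motif was counted, so this region counts below as lacking the E-box.

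All 9 windows held at least 1 region, where 78.7% of 21938 protein-coding genes did. Shared regions were found at 8 of the 9 genes (67.6% of coding genes), the exception being *Pcdh20*, and regions of all 3 antibodies at 6 of 9 (26.7% of coding genes), the exceptions being *Pcdh10*, *Pcdh17* and *Pcdh20*. The windows of the members were longer than usual, with a median of 157 kb against 117 kb for coding genes, and a longer window holds more regions. Per 100 kb of window, the members' density of shared regions had a median percentile of 74.1 among coding genes, and the percentiles of single members ran from 16.2 to 94.6. *Pcdh8* with 4.78 shared regions per 100 kb, *Pcdh1* with 3.96 and *Pcdh17* with 3.58 were densest with these windows, and *Pcdh18* with 0.877 lay just under the coding-gene median of 0.950. The order depends on the flanks, since with flanks of 10 kb *Pcdh17* came first with 4.33 per 100 kb, *Pcdh8* and *Pcdh1* kept 1 shared region each (4.08 and 2.17), and *Pcdh18* kept none.

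**Figure D1:**
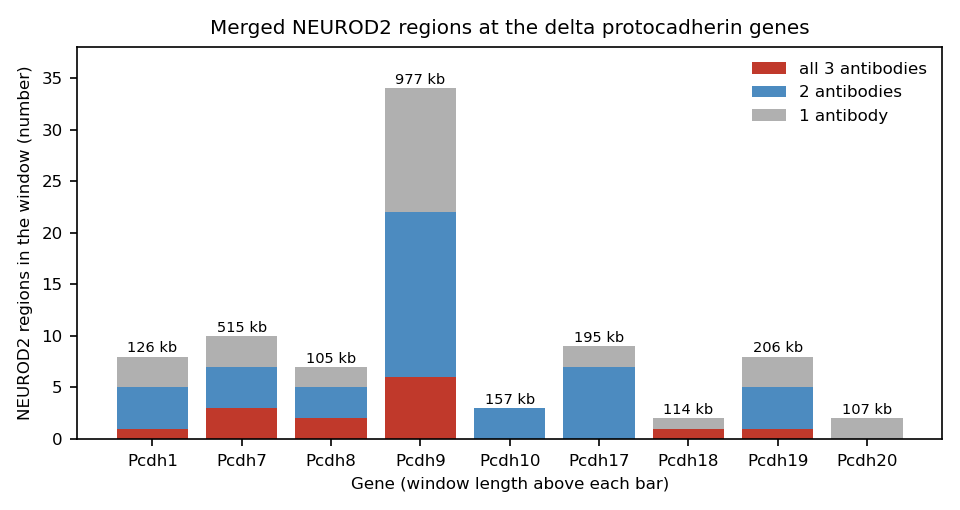
Number of merged NEUROD2 regions in the window of each gene, stacked by the number of antibodies that gave a peak, with the window length in kb above each bar. *Pcdh9*, with the longest window, held 34 regions, and *Pcdh20* held 2 regions of a single antibody and none that was shared.

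Among the delta-1 genes, *Pcdh9*, which has been linked to autism and encodes an adhesion protein of cortical and retinal neurons, took 22 of the 55 shared regions, or 40% (28.1 to 53.2), and 6 of the 14 regions with all 3 antibodies. The gene spans 877 kb on the minus strand of chromosome 14 (93013410 to 93890669), and its count of shared regions stood at percentile 99.7 among coding genes. Its density of 2.25 per 100 kb stood at percentile 74.1. Of the 77 coding genes with a window at least as long, 23 had more shared regions. The long introns were all bound, with 8 shared regions in intron 2 (325 kb), 6 in intron 3 (234 kb) and 7 in intron 4 (311 kb), or 2.46, 2.57 and 2.25 per 100 kb. Neighbouring shared regions were a median of 30.2 kb apart, with gaps from 4.05 to 168 kb.

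The highest score of any member was in intron 3 of *Pcdh9* (chr14:93463197-93464171, 427 kb from the transcription start site, TSS), scoring 2989 with ab1, 1200 with ab2 and 201.4 with ab3. That ab1 score is among the top 2.50% of all shared regions of the series. The next *Pcdh9* region with all 3 antibodies lies in the same intron at chr14:93451004-93451977 and scored 1696, 936.4 and 99.21, with 3 E-boxes in its central 200 bp. The other 4 are at 505 kb in intron 3 (1346, 756.2 and 95.27), 851 kb in intron 4 (1255, 710.1 and 98.08), 792 kb in intron 4 (956.1, 424.5 and 89.53) and 215 kb in intron 2 (711.9, 309.0 and 87.56). In these 6 regions ab1 ranked above ab2 and ab2 above ab3 without exception. *Pcdh9* also had the highest-scoring region over a TSS among the members, at chr14:93890113-93891920, with 1016 for ab1 and 365.7 for ab2 and no ab3 peak. The median ab1 score over the gene's 22 shared regions was 679.3 (93.29 to 2989), against 277.7 over all shared regions of the series. Another 12 regions of *Pcdh9* had a peak of ab1 alone, with scores from 51.23 to 114.7.

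*Pcdh7*, whose protein acts in axon outgrowth and binds the phosphatase PP1 alpha through its tail, spans 415 kb on the plus strand of chromosome 5 (57717967 to 58133230). It had 10 regions, 7 of them shared and 3 with all 3 antibodies, and all 7 lay inside the gene. Its density of 1.36 per 100 kb was at percentile 57.2. The strongest, at chr5:57847243-57848039 in intron 1 and 130 kb from the TSS, scored 2568 for ab1, 1129 for ab2 and 222.0 for ab3. A second region of intron 1 at chr5:57770221-57770943 scored 918.0, 414.6 and 70.32. The third, at chr5:58081007-58081648 in intron 2, was unlike every other region with all 3 antibodies at these genes, since ab2 (222.7) scored above ab1 (85.76), with ab3 at 66.32. Its ab1 score was in the top 90.1% of shared regions and its ab2 score in the top 33.8%. Near the start of the gene a region of ab1 and ab2 lay in coding exon 1, 1543 bp from the TSS (322.2 and 95.42), and the TSS itself was inside a region of ab1 alone (96.96).

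*Pcdh1*, which is expressed in brain and in airway epithelium, spans 26.1 kb on the minus strand of chromosome 18 (38185914 to 38212053). It had 8 regions and 5 shared regions, none of which lay inside the gene. The single region with all 3 antibodies, 29.3 kb upstream, scored 1056 for ab1, 385.3 for ab2 and 56.85 for ab3. The shared region nearest the TSS, 27.2 kb upstream (38238696 to 38239893), scored 111.0 for ab1 and 73.29 for ab2. *Pcdh1* was the only member with another coding gene in its window, *Dele1*, and the 3 shared regions upstream of *Pcdh1* were closer to the *Dele1* TSS, which lay 8972 bp from the region with all 3 antibodies and 40 bp from the farthest of the 3. *Pcdh12*, a non-delta protocadherin next to *Pcdh1*, has the same 3 regions in its own window. Of the 3 regions of *Pcdh1* that were not shared, all from ab1, the highest covered the gene's TSS with a score of 153.3.

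**Figure D2:**
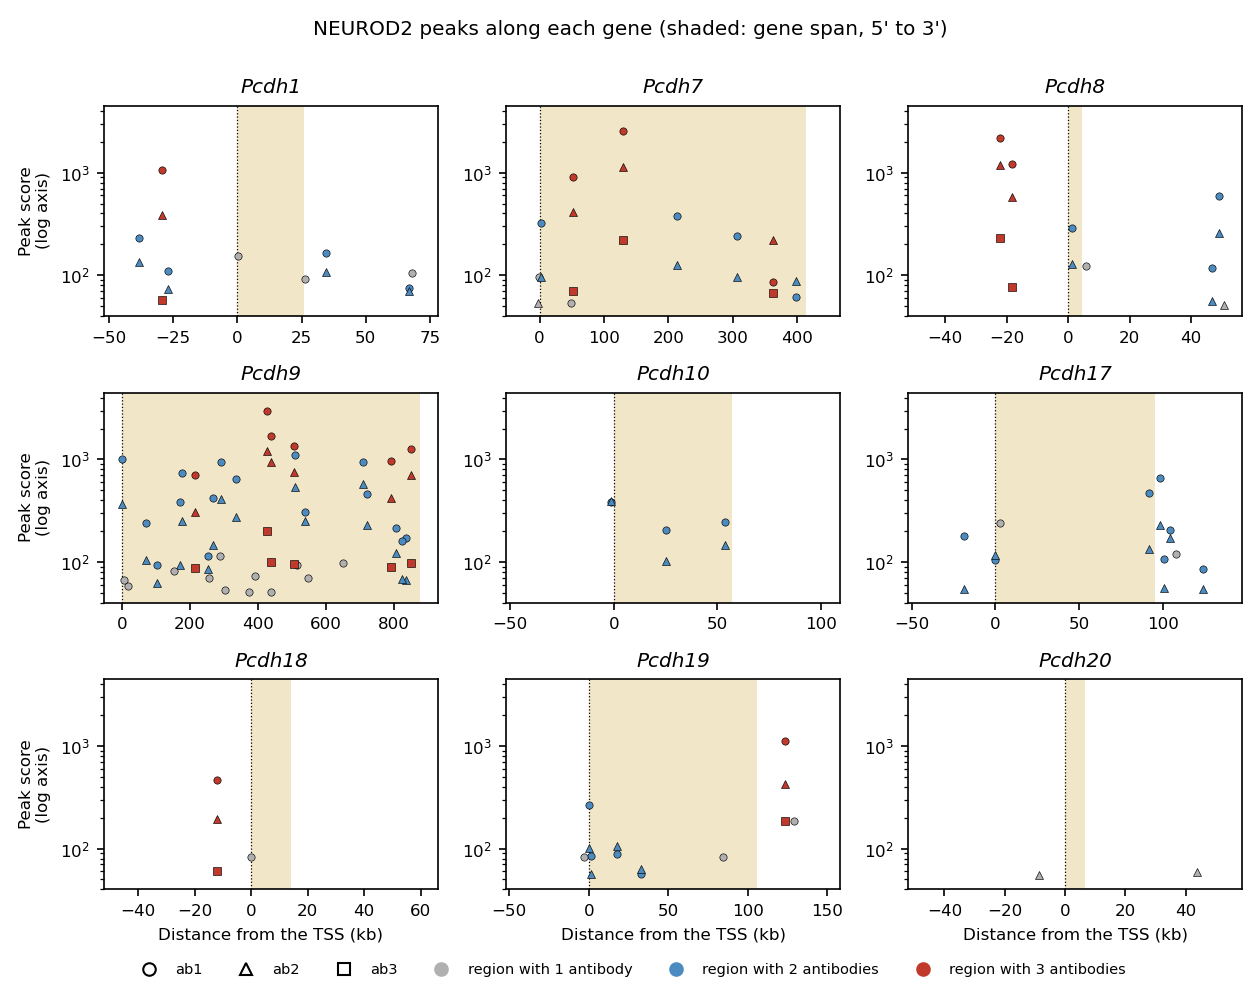
Peak score (log axis) of the highest peak of each antibody in every region against the distance of the region's midpoint from the gene's TSS in kb, with negative distances upstream. Circles are ab1, triangles ab2 and squares ab3, the colour gives the number of antibodies and the shading the gene span, and the highest ab1 scores, 2989 at *Pcdh9*, 2568 at *Pcdh7* and 2176 at *Pcdh8*, all lie over 20 kb from the TSS.

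Among the delta-2 genes, *Pcdh8*, also known as arcadlin and induced by neuronal activity at synapses, is only 4.54 kb long (chr14:79766775-79771312, minus strand) and had the highest density of the 9 genes with flanks of 50 kb, but not with 10 kb. Of its 7 regions 5 were shared. A pair of regions upstream of the gene had peaks of all 3 antibodies, at chr14:79792934-79793942 (22.1 kb from the TSS) scoring 2176 with ab1, 1183 with ab2 and 228.1 with ab3, and at chr14:79788685-79790462 (18.3 kb) with 1230, 576.6 and 76.19. The ab3 score of 228.1 was the highest ab3 score at any member. Over the gene lay the widest region of the set, 3810 bp from chr14:79768096 to 79771905, which covered the TSS and most of the gene with 286.8 for ab1 and 127.9 for ab2. Downstream, a pair of shared regions with midpoints 49.0 and 46.9 kb from the TSS scored 594.4 and 256.4, and 116.5 and 56.46, for ab1 and ab2. A further shared region just outside the window, 50.9 kb from the TSS, was not counted.

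*Pcdh17*, which acts in axon extension and at presynaptic sites of the basal ganglia, spans 95.4 kb on the plus strand of chromosome 14 (84443563 to 84539002). Its 9 regions included 7 shared regions, none with ab3. Of the 7, 5 lay from the last exon onwards, up to 124 kb from the TSS. The first of these was in the 3′ UTR in exon 4 (chr14:84534998-84535715, 473.5 for ab1 and 135.1 for ab2) and the next, the strongest at the gene, was just downstream (chr14:84541652-84542406, 651.9 and 228.1). The other 3 downstream regions had ab1 scores of 106.7, 206.8 and 85.67. At the other end of the gene, the region over the TSS scored 103.2 for ab1 and 116.8 for ab2.

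*Pcdh19*, the X-linked gene whose mutations cause an epilepsy of girls and women, spans 106 kb on the minus strand (chrX:133582860-133688987) and had 8 regions, 5 of them shared. Its strongest was downstream of the gene, at chrX:133565056-133566004 and 123 kb from the TSS, scoring 1133 with ab1, 431.3 with ab2 and 187.6 with ab3. The remaining shared regions scored under the series' ab1 median of 277.7. A pair lay in the 5′ UTR part of exon 1, 63 and 1504 bp from the TSS, with ab1 scores of 267.2 and 84.77, and another pair in intron 3 with 88.98 and 57.01. At both intron 3 regions ab2 was higher than ab1 (106.2 and 62.59). The median ab1 score of the gene, 88.98, was the lowest of the 8 genes with shared regions.

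*Pcdh10*, which binds the WAVE complex and acts in axon growth through the striatum, spans 57.2 kb on the plus strand of chromosome 3 (45378425 to 45435623) and had 3 regions, all with ab1 and ab2 and none with ab3. The 3164 bp region over its TSS, chr3:45375646-45378809, scored 385.3 for ab1 and 389.4 for ab2. The 2 regions in intron 4 scored 204.7 and 102.9, and 246.6 and 146.2. *Pcdh18*, whose protein binds the adaptor Dab1, is 14.0 kb long on the minus strand of chromosome 3 (49743296 to 49757316) and had 1 shared region, 12.2 kb upstream at chr3:49769104-49769919, scoring 467.4 with ab1, 194.6 with ab2 and 60.64 with ab3. Its TSS lay in a region of ab1 alone (82.09).

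*Pcdh20*, a gene of olfactory sensory axons and of layer 4 of the cortex, stood apart, with 2 peaks of ab2 alone (58.76 downstream and 55.41 upstream), both near the score floor. It spans 6.65 kb on the minus strand of chromosome 14 (88464743 to 88471396), and the closest shared region was 96.4 kb from its TSS. With the delta-1 and delta-2 genes among the 9 taken as groups, 10 of 34 shared regions had all 3 antibodies in delta-1, or 29.4% (16.8 to 46.2), and 4 of 21 in delta-2, or 19% (7.67 to 40). These intervals overlap widely. The density over the summed windows was 2.10 per 100 kb in delta-1 and 2.70 in delta-2, and 22 of the 34 delta-1 regions are those of *Pcdh9*.

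**Figure D3:**
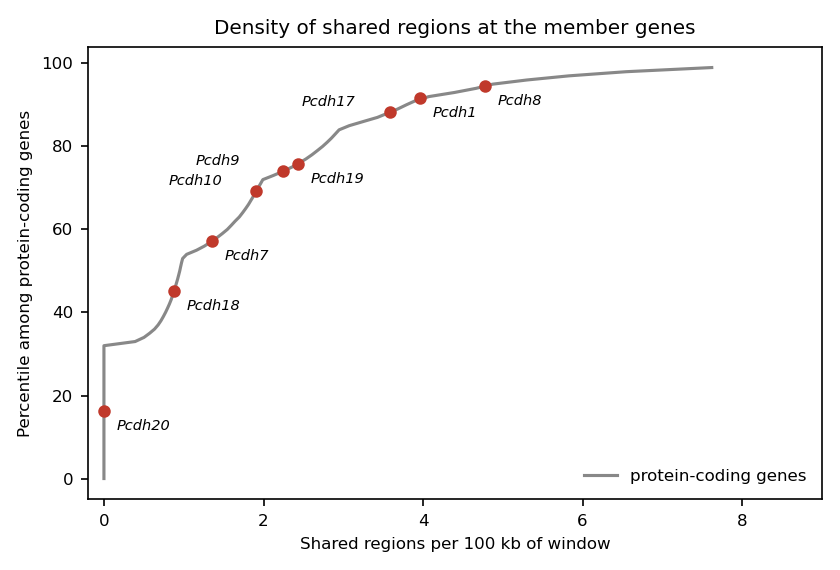
Percentile among protein-coding genes against the number of shared regions per 100 kb of window, with the coding genes as a grey line and each member as a red point. The members spread from *Pcdh20* at percentile 16.2 to *Pcdh8* at 94.6, and 6 of the 9 lie between 69.2 and 94.6.

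Most of the shared regions lay in introns or outside the genes. Of the 55 shared regions, 31 were in introns, 10 upstream, 9 downstream, 2 in coding exons, 2 in 5′ UTR exons and 1 in a 3′ UTR exon, so that 31 of the 36 inside genes were intronic, or 86.1% (71.3 to 93.9), against 82.4% of the series' shared regions inside coding genes. The median distance to the member's TSS was 104 kb, and 48 of 55 were over 10 kb away. Measured to the closest coding TSS of any gene, 46 of 55 were over 10 kb away, against 77.3% of all shared regions, and the median was 104 kb against 52.6 kb. The length of *Pcdh9* weighs on these values, and over the other 33 shared regions the median distance was 38.2 kb, 27 were over 10 kb away and 10 of the 15 inside genes were intronic, or 66.7% (41.7 to 84.8). All 14 regions with 3 antibodies were intronic (9), upstream (4) or downstream (1), between 12.2 and 851 kb from the TSS. For 52 of the 55, or 94.5% (85.1 to 98.1), the member was the coding gene with the closest TSS, the 3 exceptions being those upstream of *Pcdh1*. No other coding gene lay in the windows of the members other than *Pcdh1*, so the loci and the window rule largely set this share. With genes of every type counted, which adds non-coding transcripts and pseudogenes in and around the long introns, 8 of the 55 had the member as the closest gene.

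Most of the start sites lay inside a region, but none inside a region with all 3 antibodies. At 8 of the 9 genes the TSS lay inside a region of some antibody, where 35.8% of coding genes had this, and *Pcdh20* was the exception. At 5 of the 9 (*Pcdh8*, *Pcdh9*, *Pcdh10*, *Pcdh17* and *Pcdh19*) it lay inside a shared region, against 20.4% of coding genes, and at *Pcdh1*, *Pcdh7* and *Pcdh18* only ab1 gave a peak. A shared region with its midpoint within 1 kb of the TSS was found at 3 of 9, *Pcdh9*, *Pcdh17* and *Pcdh19*, against 20.8% of coding genes, since the wide regions at *Pcdh8* and *Pcdh10* cover the TSS from midpoints over 1 kb away. None of the 5 shared regions over a TSS had an ab3 peak. By midpoint within 1 kb of a coding TSS, 0 of 4 member regions had all 3 antibodies (up to 49.0%), against 7.87% in the series. Of the member regions farther away 14 of 51 had all 3, or 27.5% (17.1 to 40.9), against 24.3% in the series.

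The antibodies ranked the members' regions in a similar order. All 55 shared regions had ab1 and ab2, as did 99.8% of those in the series, and 14 had ab3 as well, or 25.5% (15.8 to 38.3), against 22.2% of shared regions in the series. With peaks of a score of at least 100 only, the share was 10.8% of 37 and 15.6% in the series. Without *Pcdh9* the share was 8 of 33, or 24.2% (12.8 to 41.0). No ab3 peak in the windows stood alone, and of the 28 regions with a single antibody, 24 were of ab1 (median score 82.06, 51.23 to 238.2) and 4 of ab2 (median 54.37, 50.62 to 58.76). The median score over shared regions was 322.2 for ab1 (57.01 to 2989), 144.9 for ab2 (53.90 to 1200) and 92.40 for ab3 (56.85 to 228.1, n = 14). On a log10 scale, ab1 and ab2 scores correlated over the 55 regions with Pearson's r = 0.909 and Spearman's rho = 0.893. Over all shared regions of the series r was 0.885. These points share their 2 libraries and come from 8 loci, so r is a description. The 14 regions with ab3 gave r = 0.641 for ab1 with ab3 and 0.743 for ab2 with ab3, and ab2 and ab3 share their GFP control.

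Regions with all 3 antibodies scored higher on the whole, with overlap. Their median ab1 score was 1181 (85.76 to 2989) against 241.3 (57.01 to 1101) for the 41 regions with ab1 and ab2 only, and 0 of those 41 reached 1181, while 6 of the 14 were under 1101. The low value of 85.76 is the intron 2 region of *Pcdh7*. The ratio of the ab1 to the ab2 score had a median of 2.06 (0.385 to 4.09), against 1.84 in the series, and ab2 was higher than ab1 in 6 of 55 regions, or 10.9% (5.10 to 21.8), against 10.8% in the series. These 6 were 2 at *Pcdh7*, 2 in intron 3 of *Pcdh19* and the TSS regions of *Pcdh10* and *Pcdh17*.

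**Figure D4:**
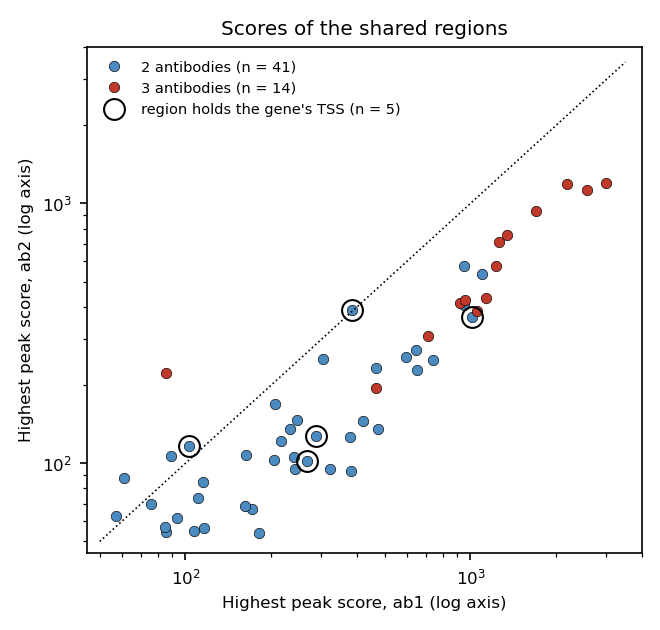
Highest ab2 score against highest ab1 score (both log axes) for the 55 shared regions, in red where ab3 also gave a peak and ringed where the region holds the gene's TSS, with a dotted line of equal scores. The red points reach highest, but 6 of the 14 have ab1 scores under the 1101 of the highest blue point, the lowest being the *Pcdh7* region with 85.76 for ab1 and 222.7 for ab2, and none of the 5 ringed points is red.

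The extended E-box shown in capitals above was in the central 200 bp of 33 of the 55 shared regions, or 60.0% (46.8 to 71.9), against 59.6% of all shared regions. In 200 bp windows placed 1000 bp away from either end of a region it was in 28 of 110, or 25.5% (18.2 to 34.3), against 22.3% in the series. The flanks are paired with the regions, and 22 of the 55 regions are of *Pcdh9*, so these intervals are no test of the difference. In the 33 regions, the E-box nearest the midpoint was a median of 32.0 bp from it (3 to 89). The core CAGATG, or CATCTG on the other strand, was in 24 of the 55 regions (39.1% in the series), CAGCTG in 11 (23.4%) and CATATG in 9 (10.6%). A further count, of regions with 2 or more E-boxes, gave 14 of 55 (22.2% in the series). Over the whole length of the regions, which have a median width of 816 bp, 52 of 55 had at least 1, against 90.3% of all shared regions. Stretches of the same widths beside the members' regions held it in 63.6% (54.3 to 72.0), against 68.7% beside all shared regions.

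By number of antibodies the E-box was in 9 of 14 regions with 3 (64.3%, 38.8 to 83.7), 24 of 41 with 2 (58.5%, 43.4 to 72.2) and 13 of 28 with 1 (46.4%, 29.5 to 64.2). These intervals overlap throughout, and the shares in the series were 63.4%, 58.6% and 57.1%. *Pcdh9* had the E-box in 17 of its 22 regions, or 77.3% (56.6 to 89.9), *Pcdh7* and *Pcdh17* each in 5 of 7, *Pcdh19* in 3 of 5, *Pcdh10* in 2 of 3, *Pcdh8* in 1 of 5, *Pcdh1* in 0 of 5 and *Pcdh18* in 0 of 1. Without *Pcdh9* the share was 16 of 33, or 48.5% (32.5 to 64.8).

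At the start sites the E-box was not found in the centre of a region. Of the 5 shared regions over a member's TSS, 0 had it in the centre, a share of up to 43.4% by the Wilson interval. Elsewhere in the region, over widths of 915 to 3810 bp, all 5 held at least 1. By midpoint within 1 kb of a coding TSS, with the region at *Dele1* included, 0 of 4 member regions had it in the centre (up to 49.0%). In the series 20.8% of the 4102 such regions had it. The *Pcdh8* and *Pcdh10* TSS regions have midpoints farther away and are not among the 4. Of the 51 member regions over 1 kb from a coding TSS 33 had it, or 64.7% (51.0 to 76.4), against 65.3% in the series. The GC content of the central 200 bp was a median of 67.0% over the 5 TSS regions and 43.2% over the other 50 shared regions. It was 42.5% in regions with the E-box and 54.8% in those without, and the part of base composition in these shares was not tested. RefSeq promoters on GRCm38.p6, from 250 bases before to 50 after the start, were at hand for 8 of the 9 genes, 9 entries in all and none for *Pcdh1*. None of the 9 held the E-box, where 26.3% of 32851 promoters did, although 6 of them overlap a shared region. A pair of *Pcdh9* entries cover nearly the same bases, and both count among the 9 and the 6.

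**Figure D5:**
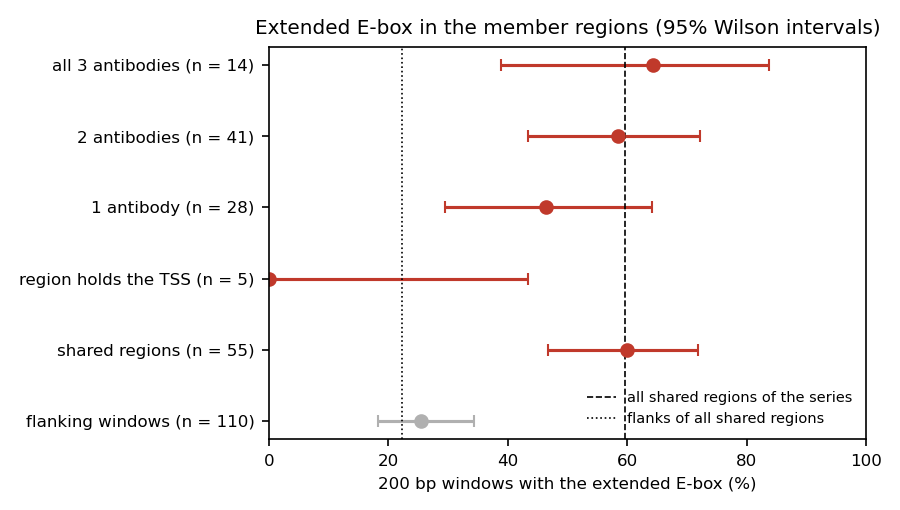
Percentage of 200 bp windows that hold the extended E-box, with 95% Wilson intervals, for member regions by number of antibodies, for regions over a TSS, for all shared regions and for their flanking windows. Shared regions (60.0%) lie on the dashed line of the series and flanks (25.5%) near the dotted line of all flanks, while the 5 TSS regions, which hold the E-box only outside the central 200 bp, are at 0 with an interval up to 43.4%.

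Other groups of adhesion genes were set beside the members. Of the 19 classical cadherins, 17 had a shared region, 11 a region with all 3 antibodies and 7 a TSS inside a shared region, where the members had 8, 6 and 5 of 9. They had 133 shared regions, with the E-box in 65.4% (57 to 73.0) and all 3 antibodies in 26.3% (19.6 to 34.4), intervals that include the members' 60.0% and 25.5%. Their density over the summed windows was 1.93 per 100 kb against 2.20 for the members, with a median percentile of 55.3 against 74.1. Over all known bases of the genome the density was 1.22 per 100 kb. The clustered protocadherins, whose 56 genes share windows, had 13 shared regions in 0.974 Mb, or 1.33 per 100 kb (median percentile of the genes 60.6), and 5 of the 13 had the E-box (38.5%, 17.7 to 64.5). Of 3 further non-clustered protocadherins, the delta-1 gene *Pcdh11x* had 1 shared region in a window of 720 kb, or 0.139 per 100 kb, sparser than the 8 members with shared regions. *Pcdh15* had 7 in 1320 kb, 3 of them with all 3 antibodies, or 0.531 per 100 kb. *Pcdh12* had 4 in 117 kb, or 3.41 per 100 kb (percentile 86.9), which is above 6 of the 9 members, but 3 of its 4 shared regions, the one with all 3 antibodies among them, are the regions upstream of *Pcdh1* and so were counted for both genes.

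Known partners of delta protocadherins were taken as a list of 12 genes, covering the WAVE complex (*Wasf1*, *Nckap1*, *Cyfip1*, *Cyfip2*, *Abi1*, *Abi2*, *Brk1*), the tail-binding *Ppp1ca*, *Taok2*, *Dab1* and *Set*, and the membrane partner N-cadherin (*Cdh2*), which is also 1 of the 19 classical cadherins. All 12 had a shared region in their window (67.6% of coding genes), 4 had a region with all 3 antibodies (26.7%) and 6 had a shared region within 1 kb of the TSS (20.8%). *Dab1*, the reelin adaptor that Pcdh18 binds, had 33 of the list's 67 shared regions and 9 with all 3 antibodies in a window of 1160 kb. *Cyfip2* had 8, *Cdh2* 6 and *Nckap1*, which Pcdh10 binds, 5. The summed density was 2.20 per 100 kb, as for the members, but 1.80 without *Dab1*, with a median percentile of 66.4 over the 12 genes, and many of these windows hold other coding genes, unlike the windows of the 9 members other than *Pcdh1*.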

How the data were processed

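NEUROD2 ChIP-Seq libraries of E14.5 cortex were made with ab1, ab2 and ab3 (1 library each). The authors mapped reads to mm10 with Bowtie and called peaks with MACS for each antibody with the host-matched GFP library as control (p-value cutoff 1e-05). The deposited score of each peak is 10 times the −log10 p-value, as the authors' peak caller wrote it. The peak lists hold no read depth, and the read totals that the study lists per library were not used here. Deeper libraries may give more and higher peaks.

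Peaks overlapping by at least 1 bp were merged and placed on GENCODE M21 by their midpoints, with Python 3.11.15 and pysam 0.24.0. Positions count from 1. All 9 members were described, each by its highest-scoring shared region, the shared region nearest the TSS and the regions with all 3 antibodies. Members and lists were chosen with earlier results of these data known. Shares have 95% Wilson intervals and correlations use log10 scores. Counting was tested on simulated data. Alternatives were a score of at least 100, a 50% overlap, each antibody left out, other flanks, motifs, motif windows and TSS definitions. The GFP libraries were not analysed here, and the reference is not of the BALB/c strain.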

Additional observations from a re-analysis of the deposited data

How the results depend on the processing

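Of 84 alternative values for the main results, 54 stayed within 1.5 times the count or within the interval or spread of the value. With the gene span alone and no flanks there were 53 regions and 36 shared regions, 75% of them with the E-box, 1 member with a shared region within 1 kb of its TSS and 100% closest to the member, which was also 100% with 10 kb flanks and 14.55% with genes of every type. With peaks of a score of at least 100, 10.8% of shared regions had all 3 antibodies and the median density percentile was 79.6. That percentile was 78.5 against genes of every type and 69.3 with regions of any antibody, and its spread between antibodies was 3.53 (SD, n = 3). The E-box share was 36.4% in 100 bp windows (flanks 14.55%), 74.5% in 400 bp windows (flanks 40%) and 78.2% for CANNTG (flanks 59.1%). It was above the flanks in each of these. A shared region lay within 5 kb of the TSS at 6 members, and the share of coding genes at that distance was not computed. The TSS lay inside a shared region at 5 members (20.4% of coding genes), a measure added after the values were seen. For the shared regions of single members, 28 of 72 alternative counts moved by over 1.5 times, and with 10 kb flanks *Pcdh1* and *Pcdh8* fell from 5 to 1 each.

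Leaving out each antibody in turn gave 14 to 55 shared regions, 57.1% to 78.6% with the E-box (flanks 10.7% to 25.5%), 0 to 3 members with a shared region within 1 kb of the TSS, a median density percentile of 74.1 to 77.7 and 86.1% to 100% of regions inside genes in introns. The 14 shared regions are those left without ab1 or without ab2, since ab3 had only 14 peaks in the windows. No share with all 3 antibodies can be given with an antibody left out. No paired analysis was possible because the GFP libraries have no values here and nothing was compared between groups.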

Other observations

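The shared regions of *Pcdh17* were gathered at the 3′ end of the gene, with 5 of 7 between the 3′ UTR and 124 kb from the TSS, and its introns held none. At *Pcdh9* the single region with the highest score, 2989 for ab1, lacked the E-box in its central 200 bp because the nearest was centred 98 bp from the midpoint. The peak lists give positions and scores with 1 library per antibody, so neither differences between animals nor weak binding under the score floor of 50 can be read from them.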
